A study of Arabidopsis thaliana with 12 samples.

Results

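Starch in the chloroplasts of leaves is built by a short chain of enzymes, and 10 genes that encode them were followed in rosette leaves of Arabidopsis thaliana. They were chosen by locus identifier out of 32592 loci: the ADP-glucose pyrophosphorylase subunits APS1 (AT5G48300), APL1 (AT5G19220) and APL3 (AT4G39210), the granule-bound starch synthase GBSS1 (AT1G32900), the soluble starch synthases SS1 (AT5G24300), SS2 (AT3G01180), SS3 (AT1G11720) and SS4 (AT4G18240), the branching enzyme BE3 (AT2G36390) and the isoamylase ISA1 (AT2G39930). The rule names loci and uses no measured value, but the genes were chosen with earlier results of these data known. All 10 had 1 gene model each, and all 10 passed the filter on low values. Messenger RNA came from whole rosette leaves of plants aged 3 weeks, taken before bolting and raised in soil (16 h of light at 22 °C, 8 h of dark at 20 °C). The groups were the accession Col (Columbia ecotype), the accession C24, the F1 hybrid ColxC24 with Col as mother and the reciprocal F1 hybrid C24xCol with C24 as mother, each sampled at zeitgeber times ZT0, ZT6 and ZT15 (hours after the lights came on). Each of the 12 combinations of genotype and time had 1 library, so no value has a replicate error. The title of the series names heterosis, the superiority of hybrids over their parents, and the comparisons ask how the parents, the times and the hybrids differ.

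ADP-glucose pyrophosphorylase makes ADP-glucose, the glucosyl donor for starch, and combines small subunits (APS1) with large subunits (APL1, APL3). GBSS1 sits inside the granule and makes amylose, the mostly unbranched polymer. SS1, SS2, SS3 and SS4 lengthen the chains of amylopectin, with SS4 also known for starting new granules. BE3 puts in branch points, and ISA1, acting with ISA2, trims misplaced branches so that amylopectin can crystallise. Leaves make starch in the light and degrade it in the following night.

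Levels are RPKM, the read density per kilobase of a transcript model scaled to sequencing depth, and can therefore be set side by side between genes. The steps between low values gave an estimated depth of 16650000 to 26500000 reads per library, with 39.2 to 45.7% of the values used within 1% of a whole read. At these depths the scarcest values of the set still stood for 77.9 reads per kilobase (APL3) and 105.7 reads per kilobase (GBSS1). The leaf markers RBCS1A, RCA and LHCB1.1 summed to 30326 to 56756 RPKM, and 8 markers of seed, flower and root summed to 0.582 to 1.56 RPKM, with the root gene IRT1 at 0 in all 12 libraries. CCA1, a clock gene of the morning, was at 188 to 233 RPKM at ZT0 and at 0.562 to 0.785 RPKM at ZT15. Pearson r between libraries lay between 0.8415 and 0.9928 across loci, which are not independent replicates. At ZT6 the Col library had 1768 RPKM of COR15A, a cold-regulated gene, against 31.1 to 123 RPKM in the other 3 genotypes. COR15A was looked at after its values were known, and its relation to the genes below was not tested. A lower level in these bulk libraries can mean fewer cells that make a transcript or less of it per cell, which cannot be told apart.

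The sequences before the annotated gene starts are shown because these genes followed different daily courses. They come from the RefSeq genome and annotation, build TAIR10.1, in which all 10 loci were found. GBSS1 had the deepest fall of the set between ZT0 and ZT15. BE3 rose by less than APL3 (log2 difference 1.44 against 2.60), whose window held no match to the motifs searched below. The 250 bases before the starts of GBSS1 and BE3 read, 5′ to 3′ on the coding strand and with motif matches in capitals:
GBSS1 (chr1:11923867-11924116, minus strand): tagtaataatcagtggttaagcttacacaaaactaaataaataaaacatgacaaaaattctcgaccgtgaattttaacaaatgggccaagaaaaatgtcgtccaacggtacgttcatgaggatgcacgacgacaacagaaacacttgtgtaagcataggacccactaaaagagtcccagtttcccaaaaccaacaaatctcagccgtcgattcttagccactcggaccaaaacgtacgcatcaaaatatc
BE3 (chr2:15263961-15264210, plus strand): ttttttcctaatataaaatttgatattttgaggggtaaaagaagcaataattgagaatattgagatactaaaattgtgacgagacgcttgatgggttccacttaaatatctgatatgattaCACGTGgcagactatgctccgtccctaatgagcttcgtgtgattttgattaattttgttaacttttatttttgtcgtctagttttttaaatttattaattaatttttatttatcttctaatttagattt

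Each 250-base window was searched on both strands for 3 short motifs that are known from light- and clock-responsive genes of plants. The G-box, CACGTG, was found before SS1, SS3, SS4 and BE3, with a pair of copies before SS4. It was found in 6.49% of the windows of 27443 protein-coding genes. The CCA1-binding site, AAAAATCT or AACAATCT, was found before ISA1 and in 8.38% of all windows. The evening element, AAAATATCT, was found whole in the window of none of the 10 genes and in 2.36% of all windows. The GBSS1 window ends in aaaatatc, which is this motif without its last letter. The SS1 window holds the same letters, and the BE3 window holds aaatatct, the motif without its first letter. Such partial matches were not counted over all windows. Windows stopped at the annotated starts, so matches running across a start were not searched. Neither the evening element nor the CCA1-binding site contains the other, and each was counted on its own. A match describes letters in this window and is not a site shown to be bound. The G-boxes before SS3 and SS4 lie inside the annotated neighbours AT1G11710 and AT4G18230. The matched stretches, 30 bases each with the motif in capitals, read:
SS1 (chr5:8266404-8266433, plus strand): aatttaCACGTGgcacaatatgaggctcca
SS3 (chr1:3951116-3951145, plus strand): ttcCACGTGatttgtttaagattagccgtc
SS4 (chr4:10081998-10082027, plus strand): agaataCACGTGgcgtaacCACGTGacttt
BE3 (chr2:15264076-15264105, plus strand): tgattaCACGTGgcagactatgctccgtcc
ISA1 (chr2:16665670-16665699, plus strand): atttagcttcAAAAATCTtacgattaggaa

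Of the 4 genes with a G-box, SS4 and BE3 were highest at ZT15 in all 4 genotypes in the levels below. SS1 was highest at ZT15 in 3 genotypes, and SS3 was highest at ZT6 in all 4. APS1 and APL3, whose windows held no match to any of the motifs, were also highest at ZT15 in all 4 genotypes. A relation between the motif and the daily course was not tested.

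Averaged over the 12 libraries, the most abundant transcript was APS1 at 275 RPKM, followed by APL1 at 193 RPKM. GBSS1 averaged 84.4 RPKM, SS1 80.1 RPKM, BE3 51.0 RPKM, SS4 50.7 RPKM and SS2 35.1 RPKM. The lowest means were those of ISA1 at 22.9 RPKM, SS3 at 21.0 RPKM and APL3 at 16.0 RPKM. APS1 was above APL1 in 11 of 12 libraries and SS1 was above BE3 in 11 of 12, so these steps in the order held across genotypes and times. GBSS1 was above SS1 in 4 of 12 libraries and BE3 above SS4 in 5 of 12, so those neighbours were not separated beyond the spread between libraries. The 10 genes together made up 0.0794 to 0.112% of all RPKM in a library.

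**Figure D1:**
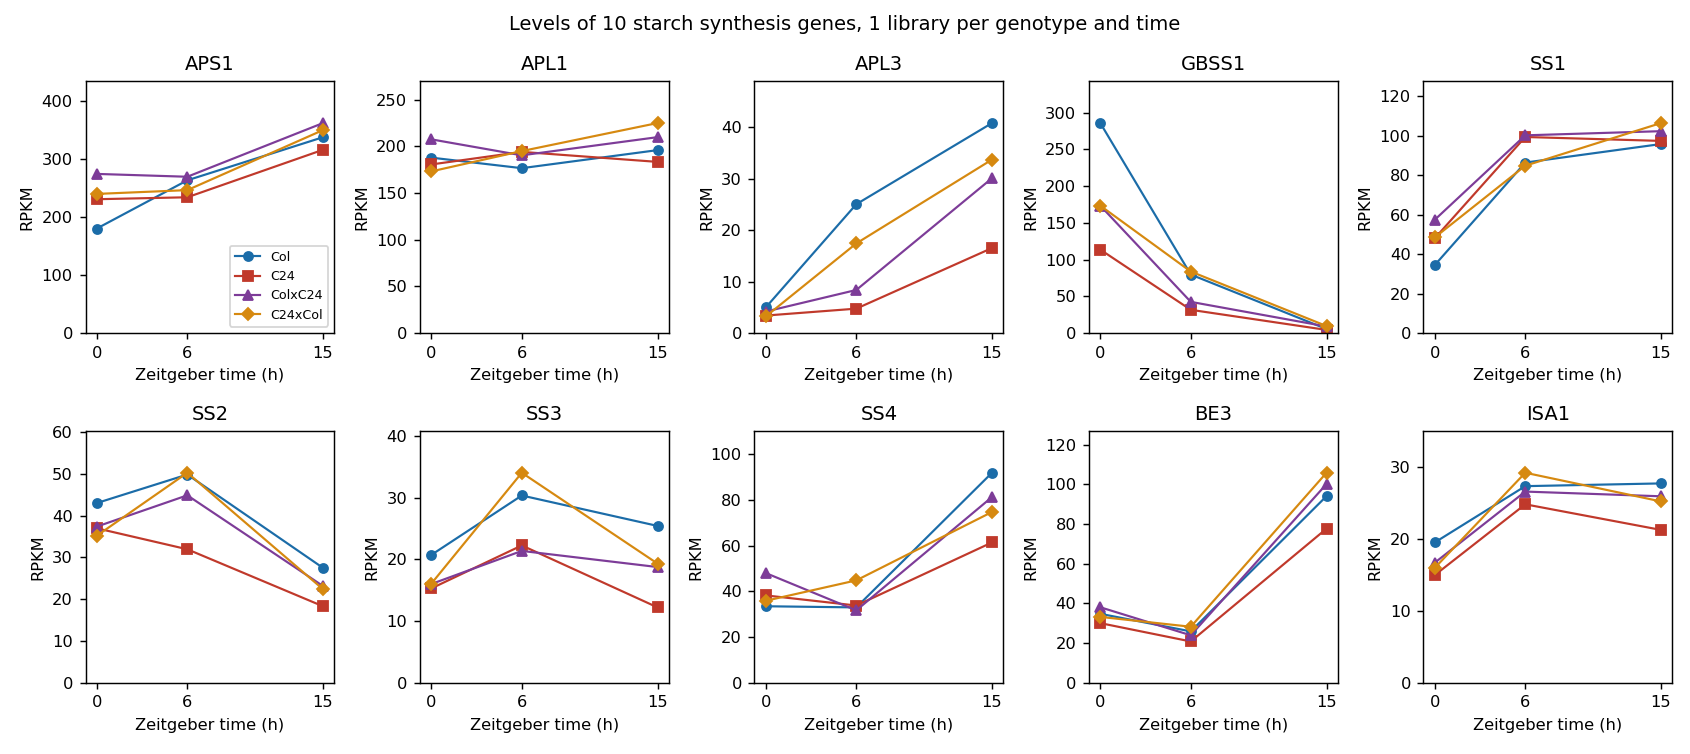
RPKM of each of the 10 genes (y axis, linear from 0) against zeitgeber time in hours (x axis), with 1 point per library and 1 line per genotype. GBSS1 falls from 114 to 286 RPKM at ZT0 to 4.31 to 9.59 RPKM at ZT15, while APL3, SS4 and BE3 are highest at ZT15 and APL1 stays between 173 and 225 RPKM.

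The catalytic small subunit of ADP-glucose pyrophosphorylase, APS1 (ADG1 in RefSeq), was at 180.0 (Col), 230.4 (C24), 274 (ColxC24) and 239.6 RPKM (C24xCol) at ZT0. At ZT6 it was at 263, 234, 269 and 246 RPKM in the same order, and at ZT15 at 337, 316, 362 and 349.5 RPKM. Values of the other genes at these times follow this order too. As deposited, every ZT15 library was above every ZT0 and ZT6 library. After median-of-ratios scaling ColxC24 at ZT6 (322.9 RPKM) was above Col at ZT15 (308.4 RPKM), and after quantile normalization both were at 289.7 RPKM. In the limma fit the log2 difference of ZT15 against ZT0 was 0.57 (SE 0.12, adjusted p = 0.0038), higher in 4 of 4 genotypes. Against ZT6 it was 0.43 (SE 0.12, adjusted p = 0.025), again higher in 4 of 4 genotypes. That second call rested on single libraries: adjusted p was 0.054 to 0.082 without any one of the C24 library at ZT6, the Col library at ZT15, or either hybrid at ZT6 or ZT15. It was 0.10 after median-of-ratios scaling and also after quantile normalization.

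APL1, the main large subunit of leaves, was nearly level. At ZT0 it was at 188 (Col), 181 (C24), 208 (ColxC24) and 173 RPKM (C24xCol). It was at 177, 194, 191 and 195 RPKM at ZT6 and at 196, 183, 210.0 and 225 RPKM at ZT15, and the 3 times overlapped. None of the time differences passed the test (ZT15 against ZT0, log2 difference 0.12, SE 0.10, adjusted p = 0.38). The ratio of APL1 to APS1 was 0.723 to 1.04 at ZT0, 0.672 to 0.831 at ZT6 and 0.581 to 0.644 at ZT15.

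APL3, a large subunit that is known to respond to sugars, was scarce at dawn, and its levels in the 4 genotypes were farther apart later. It was at 4.99 (Col), 3.41 (C24), 4.18 (ColxC24) and 3.24 RPKM (C24xCol) at ZT0. At ZT6 the levels were 25.0, 4.75, 8.38 and 17.4 RPKM, so Col and C24xCol were high and C24 and ColxC24 low. At ZT15 they were 40.8, 16.5, 30.1 and 33.7 RPKM, with C24 the lowest by a wide margin. APL3 rose from ZT0 to ZT6 (log2 difference 1.37, SE 0.27, adjusted p = 0.0035), from ZT6 to ZT15 (1.23, SE 0.27, adjusted p = 0.0098) and over both steps (2.60, SE 0.27, adjusted p = 9.9e-05), in 4 of 4 genotypes each. The step from ZT6 to ZT15 missed the threshold without the 3 ColxC24 libraries (1.07, adjusted p = 0.075). Of 17207 loci tested, those that rose further than APL3 from ZT0 to ZT15 numbered 116 (Col), 132 (C24), 98 (ColxC24) and 43 (C24xCol). APL3 made up 1.83 to 2.59% of the summed RPKM of APL1 and APL3 at ZT0. Its share was 12.4 (Col), 2.39 (C24), 4.21 (ColxC24) and 8.20% (C24xCol) at ZT6. At ZT15 the share was 17.2, 8.26, 12.5 and 13.03%.

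GBSS1 had the widest daily range of the 10 genes. It was at 286 (Col), 114 (C24), 173 (ColxC24) and 173 RPKM (C24xCol) at ZT0. The levels at ZT6 were 79.7, 31.7, 42.5 and 83.8 RPKM, and those at ZT15 were 5.56, 4.31, 8.99 and 9.59 RPKM. The 3 times did not overlap, and each genotype was highest at ZT0 and lowest at ZT15. GBSS1 fell from ZT0 to ZT6 (log2 difference -1.67, SE 0.24, adjusted p = 7.5e-04), from ZT6 to ZT15 (-2.84, SE 0.24, adjusted p = 6.2e-05) and over both steps (-4.51, SE 0.24, adjusted p = 2.4e-06), in 4 of 4 genotypes each. On RPKM + 1 the fall from ZT0 to ZT15 was 43.7 (Col), 21.6 (C24), 17.5 (ColxC24) and 16.5-fold (C24xCol). Between 7 loci (Col) and 31 loci (C24xCol) of the 17207 tested fell further.

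The soluble synthase SS1, which is known to make short amylopectin chains, was lowest at dawn. It was at 34.5 (Col), 48.1 (C24), 57.4 (ColxC24) and 48.5 RPKM (C24xCol) at ZT0. At ZT6 it was at 86.4, 99.4, 100.2 and 84.8 RPKM, and at ZT15 at 95.8, 97.4, 102 and 106 RPKM. The ZT0 libraries lay below all others, while those of ZT6 and ZT15 overlapped. SS1 rose from ZT0 to ZT6 (log2 difference 0.98, SE 0.12, adjusted p = 3.3e-04) and stood 1.098 above ZT0 at ZT15 (SE 0.12, adjusted p = 1.6e-04), in 4 of 4 genotypes each. Between ZT6 and ZT15 the difference was 0.12 (SE 0.12, adjusted p = 0.51).

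SS2, which is known to make intermediate amylopectin chains, was the only synthase beside GBSS1 called lower at ZT15 than at ZT0. It was at 43.0 (Col), 37.0 (C24), 37.4 (ColxC24) and 35.2 RPKM (C24xCol) at ZT0, and at 49.8, 32.0, 44.9 and 50.3 RPKM at ZT6. At ZT15 it was at 27.5, 18.3, 23.2 and 22.4 RPKM, below every library of the earlier times. SS2 fell from ZT0 to ZT15 (log2 difference -0.73, SE 0.12, adjusted p = 0.0014) and from ZT6 to ZT15 (-0.92, SE 0.12, adjusted p = 7.7e-04), in 4 of 4 genotypes each. The difference of ZT6 against ZT0 was 0.19 (adjusted p = 0.23). It passed the test after median-of-ratios scaling (0.35, adjusted p = 0.027) and after quantile normalization (0.38, adjusted p = 0.017), and C24 had the opposite sign in RPKM.

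SS3, whose protein is known for long amylopectin chains, was highest at ZT6 in all 4 genotypes. It was at 20.7 (Col), 15.3 (C24), 16.0 (ColxC24) and 16.1 RPKM (C24xCol) at ZT0. At ZT6 the levels were 30.4, 22.3, 21.4 and 34.1 RPKM, and at ZT15 they were 25.4, 12.2, 18.8 and 19.3 RPKM. At ZT6 every library was above every ZT0 library, and the ZT15 libraries overlapped with both. SS3 rose from ZT0 to ZT6 in 4 of 4 genotypes (log2 difference 0.62, SE 0.15, adjusted p = 0.0088), a call that missed the threshold without the 3 C24xCol libraries (0.48, adjusted p = 0.061). The fall from ZT6 to ZT15 (-0.51, SE 0.15, adjusted p = 0.032) was lost in 10 of 23 alternatives. These included leaving out the C24 library at ZT6 or ZT15 (adjusted p = 0.078 and 0.095), the C24xCol library at ZT6 or ZT15 (0.087 and 0.094) and the ColxC24 library at ZT0 (0.051).

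SS4 was higher before dusk than at either earlier time. It was at 33.5 (Col), 38.3 (C24), 48.0 (ColxC24) and 35.9 RPKM (C24xCol) at ZT0 and at 33.0, 33.8, 31.7 and 44.9 RPKM at ZT6. At ZT15 it was at 92.0, 61.5, 81.4 and 74.8 RPKM, above every earlier library. SS4 rose from ZT6 to ZT15 (log2 difference 1.09, SE 0.17, adjusted p = 0.0016) and from ZT0 to ZT15 (0.97, SE 0.17, adjusted p = 0.0015), in 4 of 4 genotypes each, and both calls were kept in all 23 alternatives.

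The 5 synthases changed places over the day. GBSS1 made up 68.5 (Col), 45.04 (C24), 52.2 (ColxC24) and 56.1% (C24xCol) of their summed RPKM at ZT0. Its share was 28.5, 14.5, 17.7 and 28.1% at ZT6 and 2.26, 2.23, 3.83 and 4.12% at ZT15. SS1 made up 38.9 to 50.3% at ZT15 and SS4 31.7 to 37.3%, so these soluble enzymes together held most of the synthase transcript before dusk. The summed level of the 5 genes was 252 to 418 RPKM at ZT0 and 194 to 246 RPKM at ZT15.

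**Figure D2:**
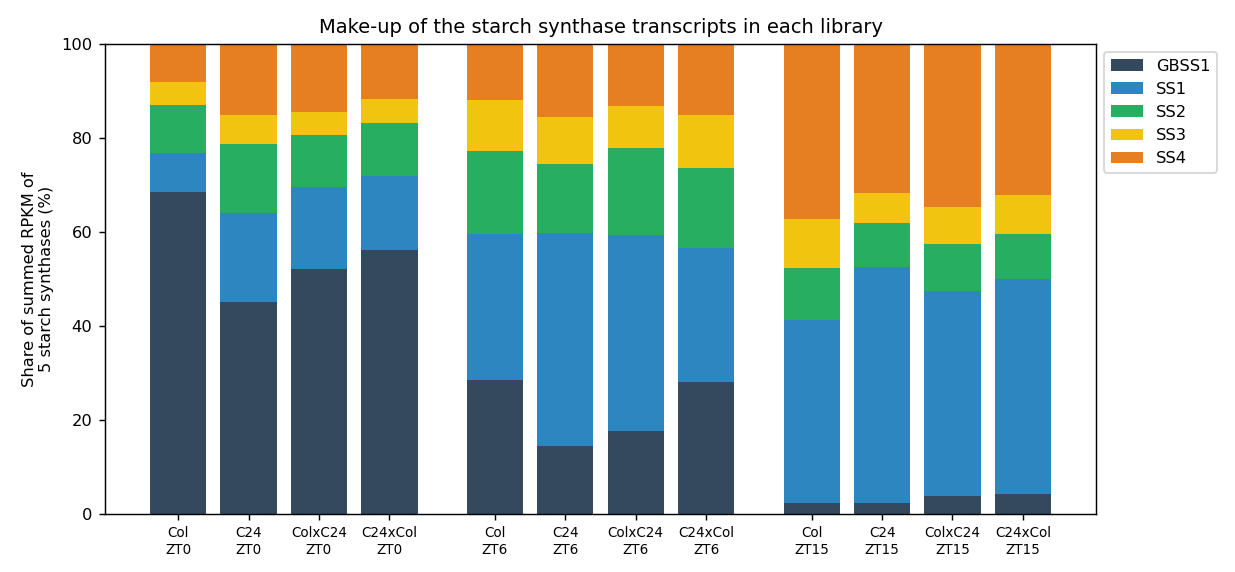
Share of each of the 5 starch synthases in their summed RPKM (y axis, percent) in each of the 12 libraries (x axis, grouped by zeitgeber time). The GBSS1 share is 45.04 to 68.5% at ZT0 and 2.23 to 4.12% at ZT15, and SS1 and SS4 hold most of the bar at ZT15.

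BE3, listed as SBE2.1 in RefSeq, was lowest at ZT6 and highest at ZT15 in all 4 genotypes. It was at 34.8 (Col), 30.1 (C24), 38.0 (ColxC24) and 33.2 RPKM (C24xCol) at ZT0 and at 25.9, 20.8, 23.9 and 28.2 RPKM at ZT6. At ZT15 the levels were 94.0, 77.6, 100.1 and 106 RPKM, and the 3 times did not overlap as deposited. ZT0 and ZT6 overlapped under both other scalings. C24 at ZT0 was then at 27.4 RPKM (median of ratios) and 27.1 RPKM (quantile), below C24xCol at ZT6 at 28.9 and 29.2 RPKM. BE3 fell from ZT0 to ZT6 (log2 difference -0.45, SE 0.10, adjusted p = 0.0071) and rose from ZT6 to ZT15 (1.89, SE 0.10, adjusted p = 3.0e-06), in 4 of 4 genotypes each. Over both steps it rose by 1.44 (SE 0.10, adjusted p = 1.2e-05), 2.53-fold to 3.12-fold on RPKM + 1. The fall to ZT6 missed the threshold without the 3 ColxC24 libraries (-0.38, adjusted p = 0.066).

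ISA1 was lowest at dawn in all 4 genotypes, at 19.5 (Col), 14.96 (C24), 16.7 (ColxC24) and 16.0 RPKM (C24xCol). It was at 27.3, 24.8, 26.6 and 29.2 RPKM at ZT6 and at 27.7, 21.2, 25.9 and 25.2 RPKM at ZT15. The ZT0 libraries lay below all others. ISA1 rose from ZT0 to ZT6 (log2 difference 0.66, SE 0.10, adjusted p = 7.9e-04) and from ZT0 to ZT15 (0.55, SE 0.10, adjusted p = 0.0019), while ZT15 against ZT6 gave -0.11 (adjusted p = 0.44).

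Between ZT0 and ZT15, 6 of the 10 genes were called higher and 2 lower, where 42.6% of the 17207 tested loci were called, 20.3% higher and 22.3% lower. The 6 were APS1, APL3, SS1, SS4, BE3 and ISA1, the 2 were GBSS1 and SS2, and SS3 and APL1 did not pass. Between ZT0 and ZT6, 4 genes were called higher and 2 lower, beside 39.3% of all loci (12.5% higher, 26.8% lower). Between ZT6 and ZT15, 4 were called higher and 3 lower, beside 25.5% of all loci (17% higher, 8.48% lower). The median log2 difference of the 10 genes was 0.56 for ZT15 against ZT0, 0.17 for ZT6 against ZT0 and 0.11 for ZT15 against ZT6. Over all tested loci it was -0.0025, -0.14 and 0.12. Median-of-ratios scaling moved the last pair to -0.0030 and 0.0013, so small differences involving ZT6 depend on the scaling. Of the 21 time calls, 16 were kept in every alternative.

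**Figure D3:**
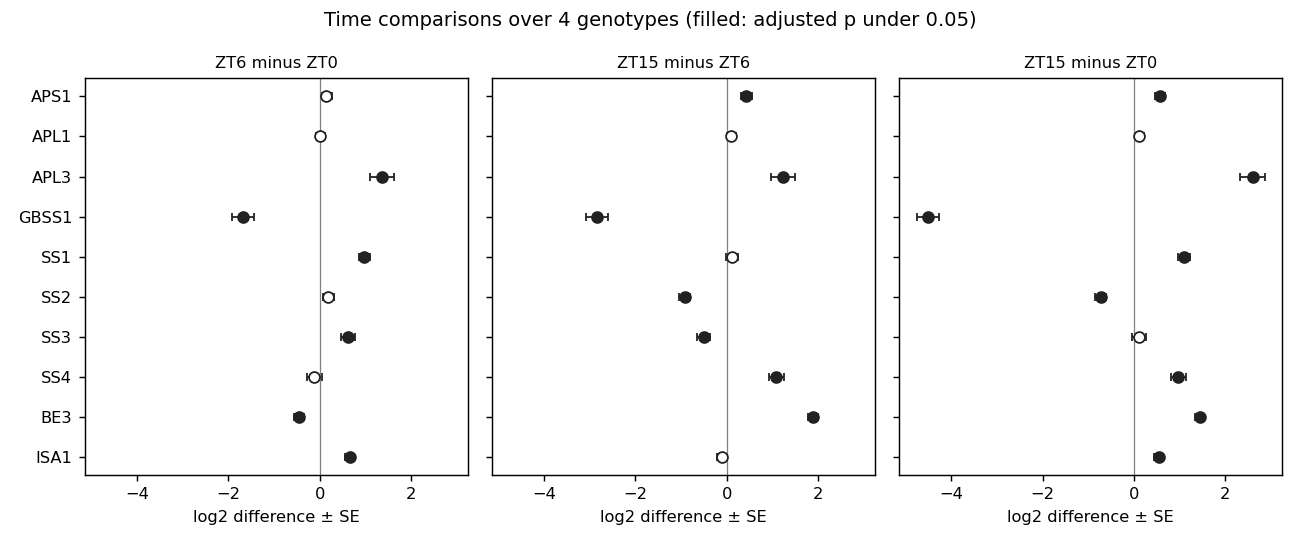
Log2 differences on RPKM + 1 (x axis) between times for each of the 10 genes (y axis) from the limma fit of 12 libraries, with error bars of 1 SE and filled points for adjusted p under 0.05. GBSS1 lies far to the left at -4.51 for ZT15 against ZT0, and APL3 at 2.60 and BE3 at 1.44 lie to the right.

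Between the parents, C24 was called lower than Col in APL3, GBSS1 and SS3 and higher in none of the 10 genes. That is 3 of 10 beside 13.6% of all tested loci called, 4.46% higher and 9.12% lower. After median-of-ratios scaling 6.29% of all loci were called lower, and APL3 was then the one gene of the 10 still called. The fit averages over the 3 times, which are listed above for each gene. GBSS1 was lower in C24 at each time: 114 against 286 RPKM at ZT0, 31.7 against 79.7 at ZT6 and 4.31 against 5.56 at ZT15. APL3 was lower in C24 at each time, with the widest ratio at ZT6, 4.75 against 25.0 RPKM. SS3 was also lower at each time, with the widest ratio at ZT15, 12.2 against 25.4 RPKM.

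The APL3 log2 difference of C24 against Col was -1.29 (SE 0.31, adjusted p = 0.025), lower at 3 of 3 times. It was -1.003 (adjusted p = 0.095) without the Col library at ZT6, the one with high COR15A. Without the Col library at ZT15, or the C24 library at ZT6 or ZT15, the adjusted p was 0.065, 0.065 and 0.10. Without all 4 libraries of ZT15 it was 0.23, and without those of ZT6 the difference was -0.85 (adjusted p = 0.054). The call was lost in these 6 of 22 alternatives, with the same direction in each.

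For GBSS1 the difference was -0.98 (SE 0.28, adjusted p = 0.049), lower at 3 of 3 times. This call was lost in 16 of 22 alternatives, and the difference then lay between -1.31 and -0.73. The adjusted p was 0.063 after median-of-ratios scaling and 0.16 without the Col library at ZT0 or at ZT6. It was 0.10, 0.10 and 0.12 without the C24 library at ZT0, ZT6 and ZT15, 0.068 without C24xCol at ZT15 and 0.074 without ColxC24 at ZT0.

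SS3 differed by -0.61 (SE 0.17, adjusted p = 0.041), again lower at 3 of 3 times. This call was lost in 13 of 22 alternatives. The adjusted p was 0.055 after median-of-ratios scaling, 0.17 and 0.058 without the C24 library at ZT15 and ZT6, and 0.095, 0.065 and 0.15 without the Col library at ZT0, ZT6 and ZT15. Leaving out a hybrid library gave 0.055 to 0.067 for ColxC24 at ZT0, ColxC24 at ZT15 and C24xCol at ZT15.

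SS2 missed the threshold narrowly (log2 difference -0.47, SE 0.14, adjusted p = 0.055) and passed it without the C24 library at ZT0 (-0.61, adjusted p = 0.027) or the C24xCol library at ZT6 (-0.47, adjusted p = 0.042). ISA1 (-0.29, adjusted p = 0.12), BE3 (-0.26, adjusted p = 0.17) and SS4 (-0.12, adjusted p = 0.72) did not pass. APS1 (0.03, SE 0.13), APL1 (-0.01, SE 0.12) and SS1 (0.23, SE 0.14) had adjusted p of 0.91, 0.98 and 0.31. The fitted difference was negative for 8 of 10 genes, with a median of -0.27 beside -0.12 over all tested loci. It was negative for 6 of 10 after median-of-ratios scaling, which moved the median of all loci to -0.02, and for 7 of 10 after quantile normalization. The share of all loci with a negative fitted difference was not counted. At single times, compared without a test, C24 was below Col for 7, 7 and 9 of 10 genes at ZT0, ZT6 and ZT15. This held for 51.6, 67.3 and 63.9% of all loci. After median-of-ratios scaling the counts were 7, 5 and 7, beside 53.3, 49.9 and 51.5% of all loci.

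**Figure D4:**
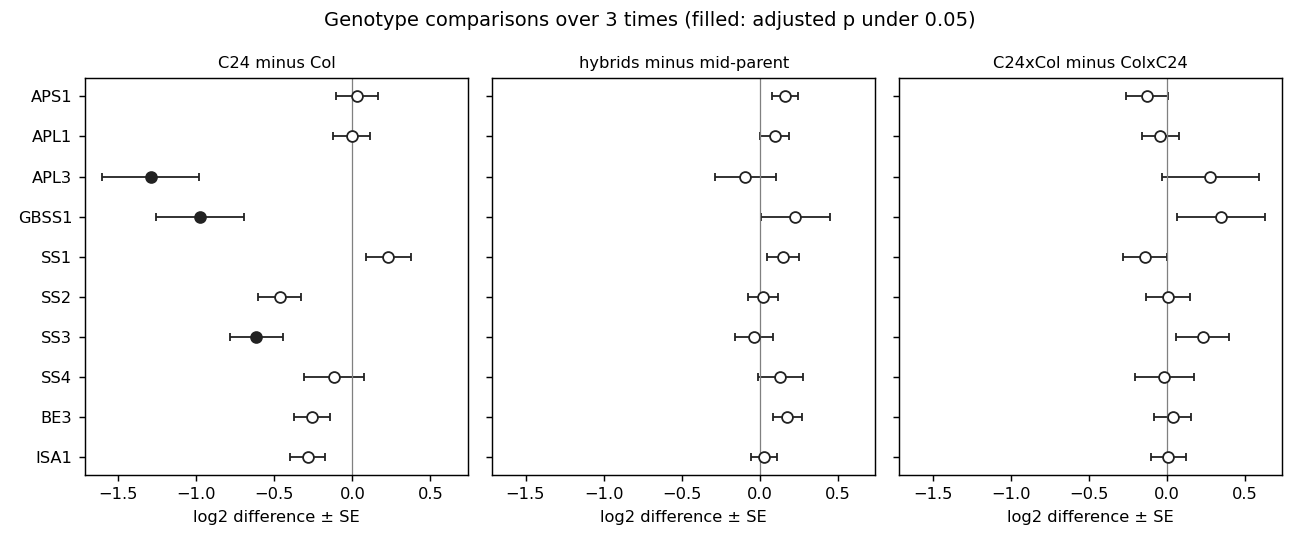
Log2 differences on RPKM + 1 (x axis) between genotypes for each of the 10 genes (y axis) from the limma fits, with error bars of 1 SE and filled points for adjusted p under 0.05. APL3 at -1.29, GBSS1 at -0.98 and SS3 at -0.61 lie left of 0 for C24 against Col, and the differences between the reciprocal hybrids lie between -0.14 and 0.35.

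Against Col, none of the 10 genes was called in the hybrids, where 7.29% of all tested loci were called by limma. That share was 2.57, 2.32 and 2.1% without the Col library at ZT0, ZT6 and ZT15. It was 3.28% without C24xCol at ZT0, 4.01, 3.49 and 3.95% without ColxC24 at ZT0, ZT6 and ZT15, and 0.674, 3.21 and 0.395% without all libraries of those times. It was 4.47% after quantile normalization and 4.23% with no filter. None of the 10 genes was called in any of these. In the fit to all 12 libraries none had an unadjusted p under 0.05 either, as 25.5% of all loci did, and the closest was SS1 (log2 difference 0.27, SE 0.12, adjusted p = 0.20). Against C24 no gene of the set was called, beside 2.14% of all loci, although 4 had an unadjusted p under 0.05, as 13.1% of all loci did. These were GBSS1 (0.82, SE 0.24, adjusted p = 0.17), APL3 (0.73, SE 0.27, adjusted p = 0.28), BE3 (0.31, SE 0.10, adjusted p = 0.20) and SS2 (0.28, SE 0.12, adjusted p = 0.37). All 10 fitted differences against C24 were above 0, with a median of 0.24 beside -0.02 over all loci. All 10 were above 0 under both other scalings too, where the medians over all loci were -0.008 (median of ratios) and -0.006 (quantile). The share of all loci above 0 was not counted. The 10 differences rest on the same C24 and hybrid libraries, so they are not 10 separate results. The comparisons with Col, C24 and the mid-parent share the hybrid libraries.

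Against the mid-parent, the mean of both parents in RPKM at each time, none of the 10 genes was called, and none had an unadjusted p under 0.05. Over all tested loci 0.0465% were called, all lower, and 12.8% had such a p. With the mid-parent taken on the log2 scale 0.523% of loci were called, 71 higher and 19 lower, and again none of the 10 genes. The largest fitted log2 differences were 0.23 for GBSS1 (SE 0.22, adjusted p = 0.73), 0.18 for BE3 (SE 0.09, adjusted p = 0.50) and 0.16 for APS1 (SE 0.09, adjusted p = 0.49). The median of the 10 genes was 0.12 and that of all tested loci -0.09. With 4 residual degrees of freedom a p above the threshold does not show that hybrids and mid-parent were alike.

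At single times the hybrids were placed by level alone, without a test. At ZT0 both hybrids were above both parents for APS1 and SS1, 2 of 10 genes beside 6.38% of all tested loci. At ZT6 this held for none of the 10, beside 5.7% of loci. At ZT15 it held for APS1, APL1, GBSS1, SS1 and BE3, 5 of 10 beside 11.3%. No gene of the set had both hybrids below both parents at any time, where 24.5, 19 and 12.9% of all loci did at ZT0, ZT6 and ZT15. These counts depend on the scaling: the hybrids were above both parents for 4, 4 and 4 genes after median-of-ratios scaling, beside 13.2, 12.9 and 12.4% of all loci, and for 5, 6 and 5 after quantile normalization, beside 14.7, 11.9 and 15.2%. Under these scalings none of the 10 genes was below both parents at any time. The share of all loci below both parents was then 13.6, 14.0 and 13.5% (median of ratios), and 2065 loci at ZT0, 15.6% at ZT6 and 11.7% at ZT15 (quantile). Most of these gaps were small. By the rule of at least 1.5-fold outside both parents on RPKM + 1, none of the 10 genes passed at ZT0 (0.0523% of all loci above) or ZT6 (0.134% above), and GBSS1 alone passed at ZT15 (0.174% above). Below both parents the rule was met by 0.331, 0.715 and 0.163% of all loci and by none of the 10 genes.

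GBSS1 at ZT15 was at 8.99 and 9.59 RPKM in the hybrids and at 5.56 and 4.31 RPKM in Col and C24. The mean of the hybrids was 1.88 times the mid-parent there, 1.13 times at ZT6 and 0.868 times at ZT0. At ZT0, where the level was highest, the hybrids lay between the parents. GBSS1 at ZT15 did not pass a rule of 2-fold.

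**Figure D5:**
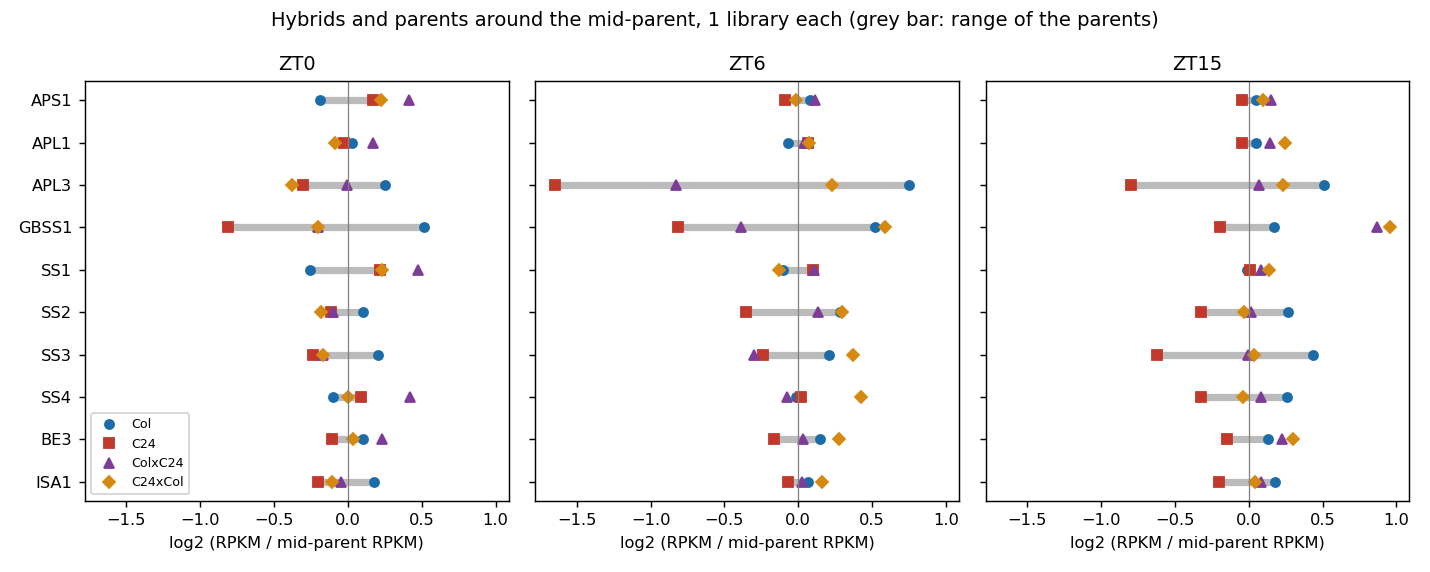
Levels of the parents and both hybrids relative to the mid-parent (x axis, log2 ratio of RPKM) for each of the 10 genes (y axis) at ZT0, ZT6 and ZT15, with 1 library per point and a grey bar for the range of the parents. GBSS1 at ZT15 has both hybrids to the right of the bar, and most other hybrid points lie on the bar or close to it.

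Between the reciprocal hybrids no gene of the set was called by limma, nor any of the 17207 tested loci (0%), of which 771 (4.48%) had an unadjusted p under 0.05. None of the 10 genes was among those 771. The widest fitted log2 differences of C24xCol against ColxC24 were 0.35 for GBSS1 (SE 0.28, adjusted p = 0.75) and 0.28 for APL3 (SE 0.31, adjusted p = 0.80). At ZT6 C24xCol was above ColxC24 for 8 of 10 genes, beside 68.9% of all loci, for 5 of 10 after median-of-ratios scaling, beside 50.4%, and for 4 of 10 after quantile normalization, beside 44.6%. APL3, GBSS1, SS3 and SS4 were above under all 3 scalings. GBSS1 was at 83.8 RPKM in C24xCol and 42.5 RPKM in ColxC24 at ZT6, and APL3 at 17.4 and 8.38 RPKM. At that time the Col library was the high parent for both genes, with 79.7 and 25.0 RPKM, and C24 the low one. Across all loci at ZT6 the Col library had r = 0.9345 with C24xCol and r = 0.9507 with ColxC24. For the C24 library r was 0.9479 with C24xCol and 0.9665 with ColxC24. A cause of the differences between the hybrids at ZT6 was not tested.

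A further 25 genes that act in or beside starch synthesis were listed, and 24 of them were tested, since APS2 fell below the filter. Between ZT0 and ZT15, 10 of the 24 were called higher and 4 lower, where 20.3% of all tested loci were called higher and 22.3% lower. ISA3, a debranching enzyme of starch breakdown, rose by 2.52 on the log2 scale (SE 0.18, adjusted p = 1.3e-05), from 5.98 to 11.6 RPKM at ZT0 to 46.9 to 60.3 RPKM at ZT15. APL2, a further large subunit, rose by 1.62 (SE 0.16, adjusted p = 8.9e-05), and ISA2, the partner of ISA1, by 1.30 (SE 0.13, adjusted p = 1.0e-04). The plastid phosphoglucomutase PGM1, which supplies glucose 1-phosphate to ADP-glucose pyrophosphorylase, rose by 1.12 (SE 0.10, adjusted p = 3.6e-05). PTST1 (AT5G39790), which is known to bring GBSS1 to the granule, rose by 2.07 (SE 0.27, adjusted p = 3.4e-04). It was at 1.09 to 3.10 RPKM at ZT0 and at 16.9 to 23.5 RPKM at ZT6, a course opposite to that of GBSS1 between those times. Also called higher were SBE2.2 (AT5G03650), a second branching enzyme of the same class as BE3, at 0.79, the glucose-phosphate translocator GPT2 at 1.19, the ATP carrier NTT1 at 0.58, the limit dextrinase LDA at 0.48 and AT3G55760 at 1.98. The 4 called lower were AT4G32190, which fell by 1.56, the thioredoxin TRXF2 by 1.43, the translocator GPT1 by 0.56 and AT1G27070 by 0.55.

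Between ZT0 and ZT6, 9 of these 24 genes were called higher and 4 lower, beside 12.5 and 26.8% of all loci. Between ZT6 and ZT15, 4 were called higher and 5 lower, beside 17 and 8.48%. GPT2 rose by 2.67 to ZT6 and fell by 1.48 from there to ZT15. MFP1, a thylakoid-associated protein known to help place new granules, rose by 0.75 and fell by 0.56, and APL4, a large subunit, rose by 0.45 and fell by 0.48. AT1G42430 fell by 0.45 on the log2 scale from ZT0 to ZT6. Between the parents, SBE2.2 (-0.43, adjusted p = 0.032), NTT1 (-0.71, adjusted p = 0.019) and AT5G03420 (-0.61, adjusted p = 0.012) were lower in C24, 3 of 24 beside 9.12% of all loci called lower. Hybrids were higher than C24 in LDA (0.49, SE 0.09, adjusted p = 0.026), and no gene of the 24 was called against Col, against the mid-parent or between reciprocal hybrids. Unadjusted p under 0.05 was reached there by 5, 4 and 0 genes, beside 25.5, 12.8 and 4.48% of all loci. Of the 40 calls among these genes, 30 were kept in every alternative. Some of the rest were lost when 1 library was left out: without C24 or without Col at ZT15 the adjusted p between parents was 0.12 for SBE2.2, 0.092 and 0.085 for NTT1 and 0.058 and 0.061 for AT5G03420. LDA against C24 had 0.12 without C24 at ZT0, APL4 had 0.071 without C24xCol at ZT0 (first step) and 0.066 without Col at ZT15 (second step), MFP1 had 0.066 without ColxC24 at ZT15, and AT1G42430 had 0.082 without C24xCol at ZT0. Scaling also cost calls: after median-of-ratios scaling and quantile normalization the adjusted p was 0.12 and 0.084 for SBE2.2 between parents. It was 0.095 and 0.13 for AT1G42430 from ZT0 to ZT6. AT5G03420 between parents had 0.057 after quantile normalization. GPT1 and AT4G32190 missed the threshold from ZT0 to ZT6 only without all libraries of a genotype or, for GPT1, after quantile normalization.

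Among the 8751 loci that averaged 10 RPKM or more, those whose log2 level over the 12 libraries was most like GBSS1 were OHP2 (Pearson r = 0.989), SIGA (r = 0.983) and PHYA (r = 0.981). OHP2 ran from 161 to 355 RPKM, so its course had the same shape over a much narrower range. CCA1 was at rank 9 with r = 0.972, and LHY, its close relative, was at rank 177 with r = 0.906. APL3 was most like XBCP3 (r = 0.966), AT2G25950 (r = 0.960) and AT5G55960 (r = 0.959). BE3 was most like PWD (r = 0.988), which encodes a kinase of starch breakdown, ALDH5F1 (r = 0.987) and AT5G39410 (r = 0.984). The 12 libraries fall into 3 times and share genotypes, so these correlations are a description and no test was made.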

How the data were processed

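The authors deposited RPKM values, read density per kilobase of model scaled to the mapped reads, for 38710 gene models in each library, per the file headers. Libraries were made with an Illumina mRNA kit and read at 84 bp, per the labels' protocols, with TAIR9 as genome build, per the submitters' processing notes. Not given in the sources used here are the aligner, the counter and how multiply mapped reads were handled. Whether C24 reads that differ from the build were lost was not tested.

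From these, the models of each locus were summed to 32592 loci. Loci averaging under 1 RPKM were left out, and the other 17207 were tested on log2(RPKM + 1), which understates changes of low genes. The test was limma 3.58.1 in R 4.3.3 (mean-variance trend, two-sided, Benjamini-Hochberg over all tested loci, threshold 0.05). Genotype and time were fitted additively to the 12 libraries. With 1 library per group, the spread is the genotype-by-time residual (6 degrees of freedom, 4 for the mid-parent fit over 9 columns). All p-values rest on it in place of replicates, and a difference that depends on time counts as spread. Single times had no test and a 1.5-fold rule of size.

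Motif windows and sequences came from RefSeq TAIR10.1, by locus identifier. The 10 genes and the other lists were chosen with earlier results of these data known. The motifs, their window, COR15A, the ranks by fold and the positions of hybrids of any size were chosen after values were seen. The rule for names took all 10 genes, called genes of the wider list, clock genes, and for the 3 genes with the widest range the 3 loci with the highest Pearson r. Alternatives were 2 other pseudocounts, other filters, the first gene model alone, median-of-ratios scaling, quantile normalization, leaving out each library, time or genotype, a mid-parent on the log2 scale, each hybrid alone, and rules of 1.2-fold and 2-fold. Depth is an estimate from whole-read steps, and no interval was derived from it.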

Additional observations from a re-analysis of the deposited data

How the results depend on the processing

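No called difference on the 10 genes changed sign. The count of the 10 genes called between C24 and Col moved most, from 3 to 1 with median-of-ratios scaling, no filter, quantile normalization, or without ZT0 or ZT6, and to 0 without ZT15. Leaving out single libraries gave 0 to 4. The count for ZT15 against ZT6 went from 7 to 4 without ColxC24, and GBSS1 at ZT15 passed no 2-fold rule, which took the count outside both parents from 1 to 0. The other counts stayed within 1.5 times the reported one: 8 in all 23 alternatives for ZT15 against ZT0, 5 to 7 for ZT6 against ZT0, and 0 for each comparison of hybrids. Of 24 calls on the 10 genes, 16 were kept in every alternative and 8 lost in at least 1, namely all 3 between the parents and 5 between times. The causes were not tested. Leaving out a parent library removes the mid-parent of that time. The synthase shares had no alternative, and the positions of the hybrids by level under both scalings stand beside their counts. All-loci splits into higher and lower calls moved with the scaling: for C24 against Col from 767 and 1570 to 1051 and 1083 (median of ratios) or 1106 and 931 (quantile), for ZT6 against ZT0 from 2156 and 4612 to 3332 and 3358 or 3237 and 3393, for ZT15 against ZT6 from 2930 and 1459 to 1885 and 2153 or 2140 and 1971, and for hybrids against Col from 284 and 970 to 394 and 458 or 390 and 380. Replicates could not be paired between groups, because each group had 1 library and the labels give no numbers that pair samples. The additive fit compares times within genotypes and genotypes within times. Without replicates, differences between plants and between libraries cannot be told apart from those between groups at a single time.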
